A study of Homo sapiens with 32 samples.

Results

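The genes described here are 10 genes listed as components or targets of the Notch pathway, taken from the deposited table by their symbols. They are the receptors NOTCH1, NOTCH2 and NOTCH3, the ligands JAG1, JAG2 and DLL1, and HES1, HES2, HEY1 and NRARP, grouped here as targets. Whether these targets, HES2 among them, respond to Notch in these cells was not tested. All 10 were among the 19345 rows of the table, and all 10 passed the filter on low values that left 12221 genes for testing. RNA was sequenced from EPC2, a human esophageal epithelial line immortalised with introduced telomerase (hTERT), and the series describes this 1 line, labelled wild type in genotype. The 4 groups were cells of the flat culture at day 0 before seeding (monolayer, 10 libraries), spheroids grown in Matrigel in keratinocyte medium with added calcium and collected at day 3 (D3, 9 libraries), untreated spheroids at day 11 (D11 UT, 7 libraries), and spheroids at day 11 that had received interleukin 13 (IL-13), a type 2 cytokine, at 20 ng/ml from day 3 (D11 IL-13, 6 libraries). Spheroids came from 2 independent experiments per the series' design, and the labels give every sample, monolayers included, batch 1 or 2, called experiment 1 and experiment 2 here.

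Notch receptors are surface proteins that are cut when a ligand on a neighbouring cell pulls on them. The released intracellular part enters the nucleus, joins the DNA-binding protein RBPJ and a Mastermind-like coactivator, and switches on target genes. Among them are members of the HES and HEY repressor families and the feedback inhibitor NRARP. In stratified squamous epithelium, the tissue type of the esophagus, Notch signalling is known as a pathway active in cells that leave the basal layer and differentiate. The series compared young and mature spheroids with the monolayer, and mature spheroids with and without IL-13, and the sections that follow give the Notch genes across these steps.

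HES1 is the best-known direct target of RBPJ, and its promoter holds 2 copies of the RBPJ core TGGGAA, both on the gene's strand. Only these exact letters are marked, so RBPJ sites with other letters are not shown. The HES1 promoter is printed with those of NRARP and NOTCH3, both of which were higher in spheroids than in monolayers. Sequences are the bases upstream of the RefSeq gene start (GRCh38.p14), up to 250, written 5′ to 3′ on the gene's strand, with each TGGGAA in capitals. HES1 lies at chr3:194135898-194136144 (plus strand, shortened to 247 bases so that no base of the GENCODE gene is included), NRARP at chr9:137302272-137302521 (minus strand) and NOTCH3 at chr19:15200996-15201245 (minus strand).
HES1: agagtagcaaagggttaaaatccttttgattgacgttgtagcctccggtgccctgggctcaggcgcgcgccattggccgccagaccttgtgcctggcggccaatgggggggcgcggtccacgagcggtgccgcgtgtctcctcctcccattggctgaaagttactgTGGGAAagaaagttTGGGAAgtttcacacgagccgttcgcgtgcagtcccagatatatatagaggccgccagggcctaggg
NRARP: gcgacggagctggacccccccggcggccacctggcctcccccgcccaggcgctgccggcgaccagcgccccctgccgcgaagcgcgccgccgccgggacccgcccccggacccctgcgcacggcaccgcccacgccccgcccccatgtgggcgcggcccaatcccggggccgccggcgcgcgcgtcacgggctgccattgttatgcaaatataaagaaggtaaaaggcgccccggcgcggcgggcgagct
NOTCH3: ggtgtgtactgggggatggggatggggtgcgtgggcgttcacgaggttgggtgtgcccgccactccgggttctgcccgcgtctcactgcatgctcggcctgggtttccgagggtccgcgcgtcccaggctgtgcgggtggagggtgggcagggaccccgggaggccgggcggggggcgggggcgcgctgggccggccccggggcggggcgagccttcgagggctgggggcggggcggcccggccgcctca

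Promoters of 8 of the 10 genes were searched, all but DLL1 and HEY1. Searched on both strands over the 250 upstream bases, the core TGGGAA was found in 1 of these 8, HES1, with copies at -84 to -79 and -70 to -65 from the start. At least 1 copy was present in 20.8% of all 35116 promoters in the table, and 2 or more in 2.9%. The longer RBPJ letters GTGGGAA, which contain the core, were found at -85 to -79 of HES1 and in 5.43% of all promoters. The N-box CACNAG, a motif bound by HES repressors, was found 3 times in HES1 and at -211 to -206 in NOTCH3, against 32% of all promoters with a match. The E-box CACGTG was in 0 of the 8 and in 6.34% of all promoters. A match describes letters in this window and is not a measured binding site.

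Values are in TPM, which corrects for transcript length and sums to a fixed total, so levels can be set side by side between genes, while read depth is unknown. A share also moves when other transcripts change: mitochondrially encoded transcripts took 44.8 to 50.1% of the TPM in monolayers, 39.1 to 57.1% in D3, 14.8 to 27.9% in D11 UT and 13.2 to 25.6% in D11 IL-13. Changes below are differences of log2(TPM + 1) with their standard error (SE) from limma, with experiment as a term and p-values adjusted over all genes tested, and a gene is called at an adjusted p under 0.05. The p-values measure the spread between libraries, which may be technical. In bulk RNA, fewer cells that express a gene and less RNA of that gene per cell cannot be told apart. Of 9 squamous epithelial markers 8 passed the filter, with a summed level of 19160 to 23800 TPM in monolayers and 46660 TPM or more in every spheroid library. Of 8 fibroblast markers 1 (COL1A1) passed, and their sum moved with the groups, at 3.4 to 9.6 TPM in monolayers and 8.1 to 30.4 in D3. In D11 UT the sum was 58.0 to 78.1 TPM and in D11 IL-13 22.0 to 46.9. COL1A2 and COL3A1 were at 0 in every library, and each of the other fibroblast markers was above 0 in at least 1 library of the series. Of 5 immune markers 1 passed, with sums of 0.3 to 5.1, 23.4 to 39.4, 10.1 to 58.9 and 22.6 to 122.3 TPM. The pan-leukocyte gene PTPRC was at 0 in all monolayers and D3 and above 0 in at least 1 library of each D11 group. Endothelial and columnar markers summed to at most 0.7 TPM per library. The part of these markers in the Notch results was not tested. On the main axis of variation, D3 library 4 of experiment 1 lay among the experiment 2 libraries of D3, and D3 library 7 of experiment 2 lay among those of experiment 1, so results that rest on D3 were also computed without both. Whether the batch labels of these 2 libraries are exchanged was not tested, and every value within an experiment, experiment difference and interaction that uses D3 takes the labels as given.

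NOTCH1 was the main receptor transcript of the monolayer and changed little across groups with the experiments pooled. NOTCH2 was the minor one, and NOTCH3 was listed at 0 in monolayers and measured in every spheroid library. NOTCH1 (chr9:136494433-136545786, minus strand, GENCODE v29 on hg38) is the receptor through which Notch acts in most squamous epithelia. It measured 35.0, 47.3 and 58.3 TPM (lowest, median and highest) in monolayers, 33.7, 51.6 and 57.0 in D3, 36.0, 39.8 and 46.9 in D11 UT, and 29.6, 42.4 and 57.1 in D11 IL-13. With the experiments pooled, all 4 groups overlapped. Within experiment 1 they did not all do so: D3, at 51.6 to 57.0 TPM, was above monolayers, at 35.0 to 41.7, and above D11 UT, at 36.0 to 43.2. Within experiment 2, D11 UT, at 39.8 to 46.9 TPM, was below monolayers, at 52.9 to 58.3, and D3, at 33.7 to 56.6, overlapped both. The monolayers of experiments 1 and 2 did not overlap each other.

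NOTCH2 (chr1:119911553-120069626, minus strand), a related receptor with near-identical partial copies elsewhere on the chromosome that could share its reads, measured 6.2, 7.0 and 7.7 TPM in monolayers. In D3 it measured 2.1, 2.7 and 3.2 TPM, in D11 UT 2.9, 3.4 and 3.7, and in D11 IL-13 2.5, 2.55 and 3.4. Every spheroid library was below every monolayer, and the spheroid groups overlapped each other.

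NOTCH3 (chr19:15159038-15200981, minus strand), a receptor of the suprabasal cells of squamous epithelium, was listed at 0 in all 10 monolayers. It measured 21.1, 40.9 and 54.3 TPM in D3, 68.8, 77.6 and 92.5 in D11 UT, and 40.5, 62.4 and 74.2 in D11 IL-13. No D3 library reached the lowest D11 UT library, and the D11 IL-13 libraries overlapped both groups. Of the 19345 genes, 2 were listed at 0 in every monolayer and at 10 TPM or more in every D3 library, NOTCH3 and the esophageal keratin KRT4, a threshold chosen after the values were seen. A listed 0 can be a failed estimate: RBM12, a broadly expressed RNA-binding protein gene picked after its values were seen, was listed at 0 in all D11 UT libraries and at 19.4 to 36.6 TPM in D3. None of 83 ribosomal protein genes was at 0 throughout any group.

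Within D3, NOTCH3 fell into separate levels that did not follow the labelled experiments. Libraries 2, 7 and 8 measured 21.1, 22.8 and 23.5 TPM, and libraries 1, 9, 3, 6, 5 and 4 measured 35.6, 40.9, 41.9, 46.2, 54.1 and 54.3 TPM. Libraries 2 and 8 belong to experiment 1 and library 7 to experiment 2, and these 3 were also the lowest on the main axis of variation, at -25.45, -24.5 and -25.15 (libraries 2, 7 and 8), against -7.56 to 12.3 in the other D3 libraries.

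**Figure D1:**
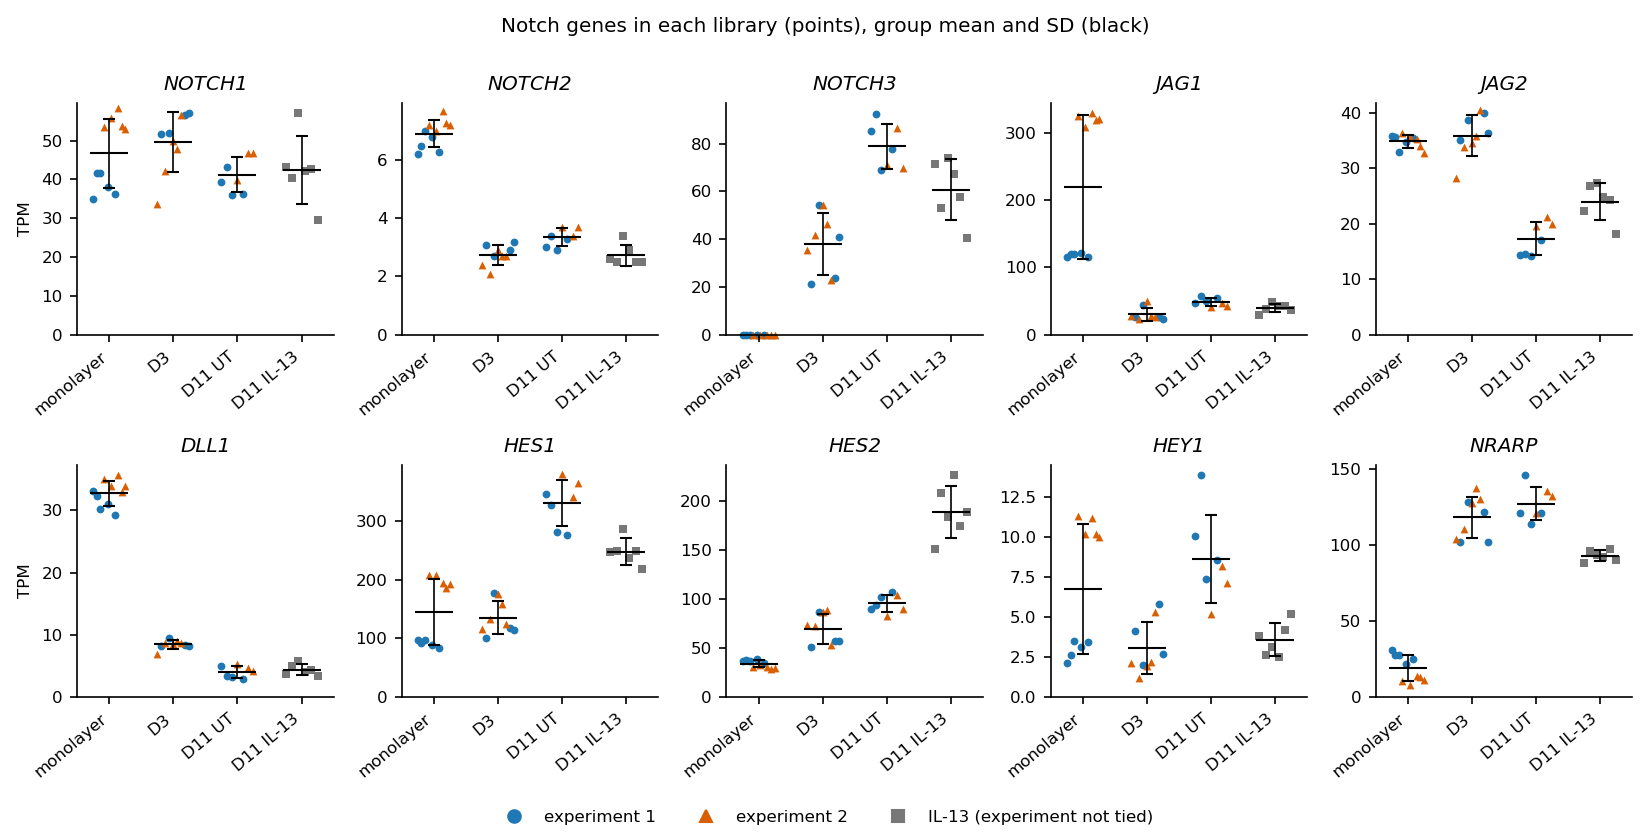
TPM of each of the 10 Notch genes in every library, in 4 groups along the horizontal axis, with linear vertical axes from 0. Points are libraries, coloured by experiment, and black marks are group means with SD, drawn only where a library was above 0. NOTCH3 was at 0 in all monolayers and at 68.8 to 92.5 TPM in D11 UT. The monolayers of experiments 1 and 2 stood apart for NOTCH1, JAG1, HES1, HES2, HEY1 and NRARP.

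As a share of the summed receptor TPM, which does not depend on how a library is scaled, NOTCH1 held 84.9 to 88.9% in monolayers and NOTCH2 the other 11.1 to 15.1%. In D3 the NOTCH1 share was 46.7 to 68.9% and the NOTCH3 share 27.8 to 50.6%. NOTCH3 was the largest receptor transcript of every D11 library, at 58.0 to 66.8% in D11 UT and 55.1 to 61.0% in D11 IL-13, while NOTCH2 held 2.2 to 4.1% in all spheroids. The summed receptor level was 41.2 to 66.0 TPM in monolayers, 71.7 to 109 in D3, 107.7 to 139.1 in D11 UT and 72.6 to 134.7 in D11 IL-13.

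Among the ligands, JAG1 and DLL1 were lower in every spheroid library than in every monolayer, and JAG2 fell later. Of all genes tested, 39.0% were lower in every D3 library, and 45.3% in every D11 UT library, than in any monolayer. JAG1 (chr20:10637684-10673999, minus strand) measured 114.7, 214.5 and 329.0 TPM in monolayers, 23.5, 26.1 and 49.8 in D3, 41.1, 46.5 and 56.6 in D11 UT, and 29.7, 39.9 and 48.2 in D11 IL-13. The monolayers fell into separate levels by experiment, 114.7 to 120.8 TPM in the 5 of experiment 1 and 308.2 to 329.0 in the 5 of experiment 2, and the lower of these was still above all spheroids.

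JAG2 (chr14:105140981-105168824, minus strand), the second Jagged ligand, measured 32.8, 35.4 and 36.3 TPM in monolayers, 28.2, 35.8 and 40.5 in D3, 14.1, 17.1 and 21.2 in D11 UT, and 18.2, 24.6 and 27.4 in D11 IL-13. Monolayers and D3 overlapped, and both lay above every D11 UT library. DLL1 (chr6:170282206-170306565, minus strand), a Delta-like ligand, measured 29.3, 33.1 and 35.7 TPM in monolayers, 6.8, 8.5 and 9.5 in D3, 2.9, 4.1 and 5.3 in D11 UT, and 3.4, 4.1 and 5.7 in D11 IL-13. The first 3 groups did not overlap in DLL1 and the 2 D11 groups did. DLL1 overlaps FAM120B on the opposite strand and the handling of strand is not given in the sources used here, so reads of the 2 genes may not be told apart.

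JAG1 held 62.4 to 82.7% of the summed ligand TPM in monolayers, 34.7 to 53.7% in D3, 62.3 to 76.0% in D11 UT and 53.3 to 62.6% in D11 IL-13. JAG2 held 8.48 to 19.7% in monolayers and 37.2 to 53.9% in D3, which did not overlap. At D11 the JAG2 share was 19.6 to 29.8% in untreated spheroids and 31.5 to 40.04% with IL-13, higher in all 6 IL-13 libraries. The summed ligand level was 179.8 to 400 TPM in monolayers and 55.7 to 92.8 TPM in all spheroids.

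**Figure D2:**
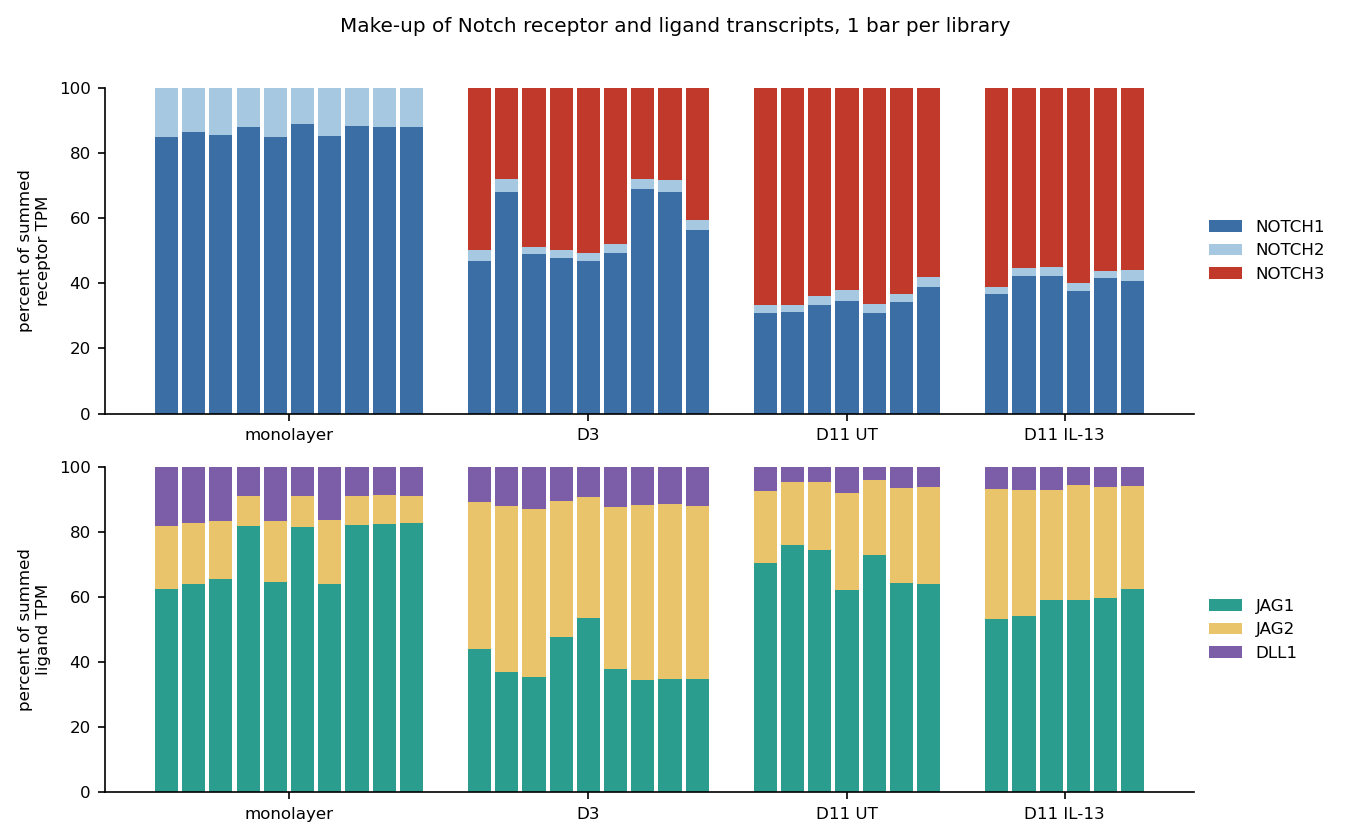
Percent of the summed receptor TPM (top) and the summed ligand TPM (bottom) taken by each gene, with 1 stacked bar per library in 4 groups. NOTCH3 was absent from the bars of the monolayers and held 55.1 to 66.8% in D11 libraries, and JAG2 held its largest shares in D3.

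Of the targets, HES1 (chr3:194136145-194138732, plus strand), a repressor with the highest mean TPM of the 10 genes in each spheroid group, measured 82.8, 141.2 and 208.5 TPM in monolayers, 100.8, 124.3 and 176.3 in D3, 276.4, 340.9 and 381.0 in D11 UT, and 217.8, 247.8 and 287.1 in D11 IL-13. Every D11 library was above every monolayer and D3 library. The monolayers again fell into separate levels, 82.8 to 97.5 TPM in experiment 1 and 184.9 to 208.5 in experiment 2, the former below and the latter above every D3 library.

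HES2 (chr1:6412418-6424670, minus strand), a repressor of the same family, measured 28.8, 33.7 and 38.2 TPM in monolayers, 51.3, 72.2 and 88.6 in D3, 82.3, 93.9 and 106.9 in D11 UT, and 151.6, 186.4 and 227.4 in D11 IL-13. Every D11 IL-13 library was above every library of all other groups in HES2. The share of all genes tested with this trait was not counted, and 9.66% had it against D11 UT alone. The ratio of HES2 to HES1, looked at after the values were seen and not tested, was 0.148 to 0.430 in monolayers, 0.429 to 0.632 in D3, 0.216 to 0.387 in D11 UT and 0.612 to 0.960 in D11 IL-13.

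**Figure D3:**
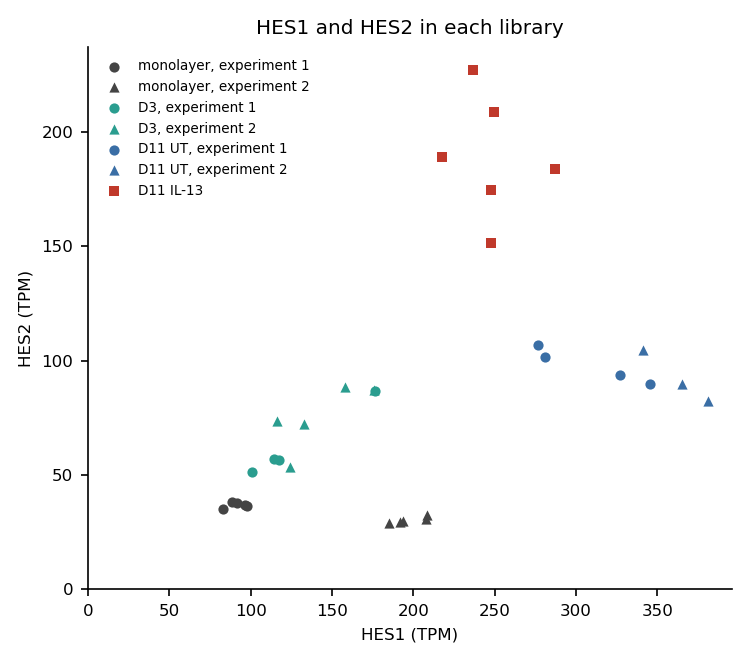
HES2 (vertical, TPM) against HES1 (horizontal, TPM), 1 point per library, coloured by group with the experiment as the marker shape. D11 IL-13 libraries lay at 151.6 to 227.4 TPM of HES2, above D11 UT, while their HES1 levels of 217.8 to 287.1 TPM overlapped with and mostly lay below D11 UT.

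HEY1 (minus strand of its chromosome in GENCODE v29), a repressor related to the HES proteins, was the least abundant target. It measured 2.1, 6.75 and 11.3 TPM in monolayers, 1.2, 2.2 and 5.8 in D3, 5.2, 8.2 and 13.9 in D11 UT, and 2.5, 3.45 and 5.2 in D11 IL-13. Its monolayers were at 2.1 to 3.5 TPM in experiment 1 and 10.0 to 11.3 in experiment 2, the former within the range of D3 and the latter above it.

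NRARP (chr9:137300482-137302251, minus strand), which binds the Notch nuclear complex and promotes turnover of the receptor fragment, measured 7.6, 17.5 and 31.0 TPM in monolayers, 101.6, 121.4 and 137.7 in D3, 113.7, 121.3 and 145.8 in D11 UT, and 87.9, 92.65 and 97.2 in D11 IL-13. All spheroids were above all monolayers and all IL-13 libraries below all other spheroids. In the monolayers NRARP was higher in experiment 1, at 21.6 to 31.0 TPM, than in experiment 2, at 7.6 to 13.3 TPM, opposite to HES1 and HEY1.

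From monolayer to D3, NOTCH3, HES2 and NRARP rose, and NOTCH2, JAG1, DLL1 and HEY1 fell. The 3 genes called higher stand against 12.7% of all genes tested called higher, and the 4 called lower against 68.2% called lower. The median change of the 10 was -0.0085 and that of all genes tested -0.44. The 3 risen genes were each higher in every D3 library than in any monolayer, as were 5.29% of all genes tested, and 3 were lower in every library, as were 39.0%.

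NOTCH3 rose by 5.20 ± 0.14 (log2 change ± SE, limma adjusted p = 5.8e-24), a size that depends on the added 1 TPM since the monolayers were listed at 0. That level in all monolayers was known when the gene was chosen, so the p-value is not support for the rise. Monolayers all at 0 also add no spread to the SE. The change was 5.07 within experiment 1 and 5.31 within experiment 2. NRARP rose by 2.74 ± 0.15 (adjusted p = 3.6e-16, 2.06 and 3.37 within experiments 1 and 2) and HES2 by 1.01 ± 0.10 (adjusted p = 1.9e-10, 0.73 and 1.26 within them). All 3 directions were seen in both experiments.

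JAG1 fell by 2.72 ± 0.19 (adjusted p = 7.1e-14), with -2.002 within experiment 1 and -3.39 within experiment 2. DLL1 fell by 1.85 ± 0.079 (adjusted p = 3.5e-19, -1.75 and -1.93 within experiments 1 and 2) and NOTCH2 by 1.09 ± 0.057 (adjusted p = 4.9e-17, -0.93 and -1.22). HEY1 stood at -0.85 ± 0.26 (adjusted p = 0.0037), but at 0.18 (adjusted p = 0.46) within experiment 1 and -1.80 (adjusted p = 4.1e-06) within experiment 2, and it was not called after median-of-ratios scaling (-0.43) or quantile normalization (-0.44).

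NOTCH1 (0.086 ± 0.11, adjusted p = 0.47), JAG2 (0.030 ± 0.077, adjusted p = 0.72) and HES1 (-0.047 ± 0.12, adjusted p = 0.73) were not called. For NOTCH1 and HES1 the experiments went opposite ways, and each within-experiment value passed: NOTCH1 was at 0.49 within experiment 1 and -0.27 within experiment 2, and HES1 at 0.44 and -0.49. JAG2 was at 0.099 and -0.018 and passed in neither. Median-of-ratios scaling, which moved the median of all genes from -0.44 to 0.0016, put NOTCH1 at 0.62, JAG2 at 0.56 and HES1 at 0.49, all called higher. With library weights HES1 was called lower (-0.24).

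From D3 to D11 UT, 6 genes rose, which were NOTCH2, NOTCH3, JAG1, HES1, HES2 and HEY1, and JAG2 and DLL1 fell. All genes tested were called higher in 33.6% and lower in 35.8%. Among the 10, 2 genes (NOTCH3 and HES1) were higher in every D11 UT library, as were 19.1% of all genes, and 2 (JAG2 and DLL1) were lower in every library, as were 19.0%. The median change of the 10 was 0.35 and of all genes -0.024. Without D3 libraries 4 and 7 the counts were also 6 higher and 2 lower.

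HES1 rose by 1.37 ± 0.14 (adjusted p = 3.2e-10), by 1.29 within experiment 1 and 1.37 within experiment 2. HEY1 rose by 1.35 ± 0.29 (adjusted p = 1.2e-04, 1.28 and 1.22 within experiments 1 and 2), with 6 of 7 D11 UT libraries above the highest D3 library. NOTCH3 rose by 1.12 ± 0.16 (adjusted p = 2.8e-07, 1.28 and 0.95), with a mean of 78.8 ± 9.41 TPM in D11 UT (SD, n = 7) against 37.8 ± 13.0 in D3 (SD, n = 9). JAG1 rose by 0.76 ± 0.21 (adjusted p = 0.0021, 0.82 and 0.53), HES2 by 0.47 ± 0.11 (adjusted p = 3.7e-04, 0.66 and 0.31, the latter not called, nor the value of 0.22 with library weights) and NOTCH2 by 0.22 ± 0.062 (adjusted p = 0.0024, 0.062 and 0.37, the former not called). The mitochondrial share fell between these groups, and with mitochondrial genes removed the 3 smallest rises were no longer called as rises, with JAG1 at 0.18, HES2 at -0.12 and NOTCH2 called lower at -0.25, while the median of all genes moved to -0.49.

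JAG2 fell by 1.01 ± 0.084 (adjusted p = 6.4e-12, -1.26 and -0.74 within experiments 1 and 2) and DLL1 by 0.91 ± 0.087 (adjusted p = 1.5e-10, -1.09 and -0.71). NOTCH1 (-0.24 ± 0.12, adjusted p = 0.080) and NRARP (0.058 ± 0.17, adjusted p = 0.78) were not called. NOTCH1 was called lower with mitochondrial genes removed (-0.83), within experiment 1 (-0.48, against -0.032 within experiment 2), after quantile normalization (-0.37) and with only the 2 groups fitted (-0.26). It was also called lower without D3 library 1 (-0.31, adjusted p = 0.013) or library 3 (-0.27, adjusted p = 0.049). NRARP was called lower with mitochondrial genes removed (-0.54) and with library weights (-0.69).

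Over the whole course from monolayer to D11 UT, NOTCH3, HES1, HES2 and NRARP rose and NOTCH2, JAG1, JAG2 and DLL1 fell. Each of these 4 rises and 4 falls also held library by library, with no overlap between the groups, as was true of 13.4% (higher) and 45.3% (lower) of all genes tested. All genes tested were called higher in 21.0% and lower in 63.5%, with a median of -0.48, against a median of 0.17 for the 10. The monolayers are the shared reference of this comparison and of the one at D3.

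The rises from monolayer to D11 UT were 6.32 ± 0.15 in NOTCH3 (adjusted p = 2.6e-25), 2.80 ± 0.17 in NRARP (adjusted p = 6.3e-16), 1.48 ± 0.11 in HES2 (adjusted p = 8.5e-14) and 1.33 ± 0.13 in HES1 (adjusted p = 1.4e-10). HES1 changed by 1.74 within experiment 1 and 0.87 within experiment 2, and NRARP by 2.21 and 3.46. NOTCH3 changed by 6.35 and 6.26 and HES2 by 1.39 and 1.57. The p-value of NOTCH3 has the same limit here as at D3, since its level in monolayers was known beforehand. The changes of the 4 lower genes were -2.76 ± 0.085 in DLL1 (-2.84 and -2.65 within experiments 1 and 2), -1.96 ± 0.20 in JAG1 (-1.18 and -2.85), -0.98 ± 0.082 in JAG2 (-1.16 and -0.75) and -0.87 ± 0.061 in NOTCH2 (-0.87 and -0.85), each with an adjusted p of 3.1e-10 or less. HEY1 (0.50 ± 0.28, adjusted p = 0.096) was called higher within experiment 1 (1.46) and lower within experiment 2 (-0.58). It was also called higher after median-of-ratios scaling (0.997), quantile normalization (0.96) and library weights (1.10), and without D11 UT library 4 (0.64, adjusted p = 0.040). NOTCH1 (-0.15, adjusted p = 0.23) was called higher after median-of-ratios scaling (0.43) and lower with mitochondrial genes removed (-0.72) and within experiment 2 (-0.30).

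**Figure D4:**
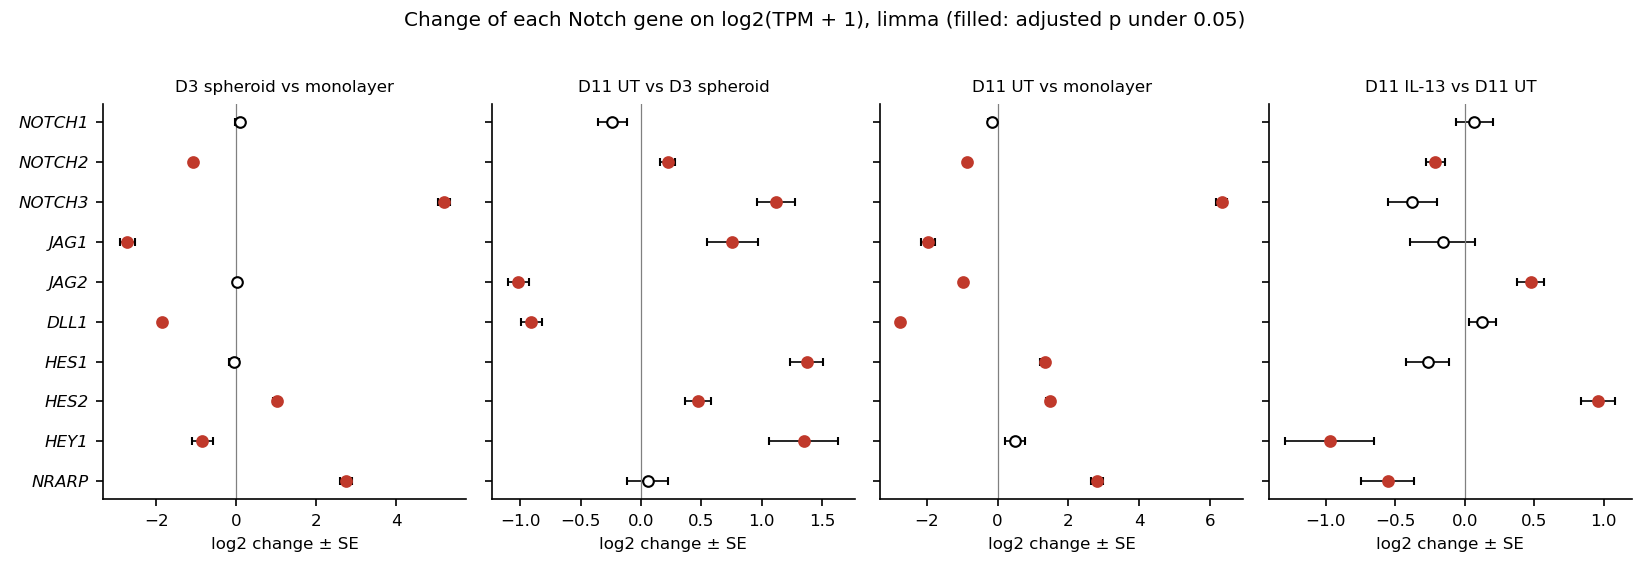
Log2 change ± SE of each gene in the 4 comparisons, from limma on log2(TPM + 1), with filled points for an adjusted p under 0.05 and a separate horizontal scale in each panel. NOTCH3 showed the largest rise of the 10 against monolayers, and HES2 the largest rise with IL-13.

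With IL-13, HES2 and JAG2 rose and NOTCH2, HEY1 and NRARP fell. Of all genes tested, 39.2% were called higher and 8.49% lower, with a median of 0.19, against a median of -0.18 for the 10. Among the 10, only HES2 was higher in every IL-13 library, as were 9.66% of all genes, and only NRARP was lower in every IL-13 library, as were 4.03%. The IL-13 columns could not be tied to single samples, so no value within an experiment can be given for this comparison, and 5 of the 6 IL-13 samples belong to experiment 1.

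HES2 measured 189 ± 26.4 TPM with IL-13 (SD, n = 6) and 95.6 ± 9.03 without (SD, n = 7), a log2 change of 0.96 ± 0.12 (adjusted p = 3.0e-07). It was called higher under every setting tried. JAG2 measured 24 ± 3.37 and 17.3 ± 2.98 TPM, a change of 0.47 ± 0.094 (adjusted p = 1.7e-04), and it was not called after median-of-ratios scaling or quantile normalization (0.23 each), which moved the median of all genes from 0.19 to near 0. In D11 UT, JAG2 measured 14.1 to 17.1 TPM in experiment 1 and 19.6 to 21.2 in experiment 2, and all 6 IL-13 libraries, at 18.2 to 27.4 TPM, were above the former.

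NRARP measured 92.8 ± 3.54 TPM with IL-13 and 127 ± 11.1 without, a change of -0.56 ± 0.19 (adjusted p = 0.017). It was not called without the experiment term (-0.45, adjusted p = 0.082) or with library weights (-0.29, adjusted p = 0.16). HEY1 measured 3.57 ± 1.04 and 8.64 ± 2.76 TPM, a change of -0.97 ± 0.32 (adjusted p = 0.013), with 5 of 6 IL-13 libraries below every D11 UT library. NOTCH2 stood at -0.21 ± 0.070 (adjusted p = 0.014) and was not called when only the D11 groups were fitted (-0.18, adjusted p = 0.070) or with mitochondrial genes removed (-0.25, adjusted p = 0.078).

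NOTCH1 (0.068 ± 0.13, adjusted p = 0.69), NOTCH3 (-0.38 ± 0.18, adjusted p = 0.078), JAG1 (-0.16 ± 0.23, adjusted p = 0.60), DLL1 (0.12 ± 0.097, adjusted p = 0.30) and HES1 (-0.27 ± 0.15, adjusted p = 0.15) were not called with IL-13. The experiment term of the fit is shared by all groups and, for JAG1 and HES1, the experiments differed most in monolayers. The same held for the called NRARP, at -1.20 in monolayers against 0.050 in D11 UT, and HEY1, at 1.57 against -0.48. Values are experiment 2 minus experiment 1. Fitted on the D11 groups alone, HES1 (-0.35, adjusted p = 0.0046), JAG1 (-0.35, adjusted p = 0.018) and NOTCH3 (-0.42, adjusted p = 0.034) were called lower. NRARP and HEY1 stayed called lower in that fit. With library weights DLL1 was called higher (0.24, adjusted p = 0.030). HES1 was also called lower after median-of-ratios scaling (-0.52, adjusted p = 0.0064) and with library weights (-0.39, adjusted p = 0.0076). NOTCH3 was also called lower after median-of-ratios scaling (-0.63), quantile normalization (-0.57), mitochondrial removal (-0.42) and library weights (-0.43), and without IL-13 library 1 (-0.43, adjusted p = 0.048), which stood apart from the other 5 IL-13 libraries on the main axis of variation. HES1 measured 248 ± 22.7 TPM with IL-13 and 331 ± 39.7 without, with 5 of 6 IL-13 libraries below every D11 UT library.

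The monolayers of the 2 experiments differed in 6 of the 10 genes, against 62.1% of all genes tested. Experiment 2 was higher in HEY1 by 1.57 ± 0.22 (adjusted p = 2.3e-06), in JAG1 by 1.43 ± 0.15 (adjusted p = 2.8e-08), in HES1 by 1.10 ± 0.12 (adjusted p = 4.0e-08), in NOTCH1 by 0.50 ± 0.095 (adjusted p = 7.9e-05) and in NOTCH2 by 0.13 ± 0.056 (adjusted p = 0.046), and lower in NRARP, at -1.20 ± 0.12 (adjusted p = 1.4e-08). In D11 UT, 2 of the 10 differed, JAG2 (0.41 ± 0.083, adjusted p = 5.1e-04) and DLL1 (0.33 ± 0.11, adjusted p = 0.016), against 41.2% of all genes. In D3, limma called 0 of the 10 and 0% of all genes, with 2 of the 10 and 1796 of 12221 genes at an unadjusted p under 0.05. Libraries 4 and 7 were chosen because they lay with the other experiment in these same data, so leaving them out widens the difference between experiments in D3 by construction. Without them, 6 of the 10 and 32.7% of all genes were called in D3, among them HES2 (0.54), NOTCH3 (0.67), HES1 (0.38) and HEY1 (-0.84).

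The change from monolayer to D3 differed between the experiments in 7 of the 10 genes, against 45.2% of all genes tested, by the interaction of group and experiment in limma. From D3 to D11 UT it differed in 3 (23.8% of all genes) and from monolayer to D11 UT in 5 (48.3%). Without D3 libraries 4 and 7, which were chosen as just described, these were 8, 6 and 5 of the 10, against 48.4%, 39.5% and 54.3% of all genes.

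**Figure D5:**
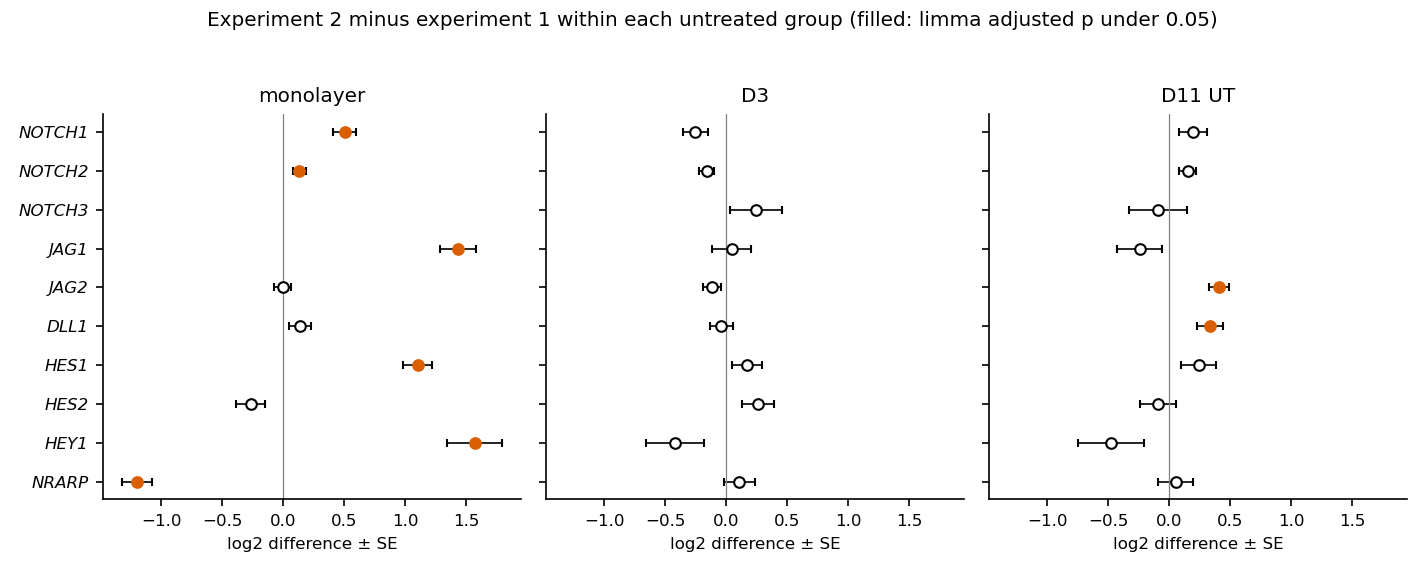
Experiment 2 minus experiment 1 (log2 difference ± SE, limma) for each gene within monolayer, D3 and D11 UT, on 1 shared horizontal scale, with filled points for an adjusted p under 0.05. NOTCH3 has no point in monolayers because all were listed at 0. JAG1, HES1 and HEY1 lay more than 1 above 0 and NRARP more than 1 below 0 in monolayers, while 0 genes were called in D3.

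A wider list of 55 other Notch pathway genes was read beside the 10, and 46 of them passed the filter. From monolayer to D3, 7 of the 46 were called higher and 34 lower, against 12.7% and 68.2% of all genes, with a median of -0.50 close to that of all genes (-0.44). From D3 to D11 UT the counts were 17 and 14 (median -0.048), against 33.6% and 35.8% of all genes. From monolayer to D11 UT they were 10 and 29 (median -0.52), against 21.0% and 63.5%, and with IL-13 18 and 3 (median 0.15), against 39.2% and 8.49%. These medians lay within 0.1 of the median of all genes in each comparison. The counts follow the scaling: after median-of-ratios scaling they were 19 higher and 18 lower from monolayer to D3, and 10 and 8 with IL-13. All 12041 genes tested there gave 4055 and 3923, and 2327 and 2517. With mitochondrial genes removed the list had 3 and 32 from D3 to D11 UT, against 1718 and 8326 of all 12839 genes.

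The cleavage genes, which encode the proteases that cut the receptor and their partners, were called lower in 9 of 9 cases from monolayer to D3 (68.2% of all genes), with the largest fall in FURIN, a convertase that processes the receptor precursor (45.9 ± 4.05 against 90.2 ± 3.87 TPM, log2 change -0.96). From monolayer to D11 UT 7 of 9 were lower (63.5% of all genes), led by NCSTN, a subunit of the gamma-secretase complex (-1.12). From D3 to D11 UT 4 rose and 1 fell (33.6% and 35.8% of all genes), with the gamma-secretase subunits PSENEN at 0.49 (-0.099 with mitochondrial genes removed) and NCSTN at -0.36 (not called with library weights, at -0.15). With IL-13 5 of 9 rose and 0 fell (39.2% and 8.49% of all genes), led by APH1A, another subunit (409 ± 63.8 against 286 ± 19.4 TPM, 0.50).

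Of the glycosyltransferases that modify the receptor and tune its response to Jagged and Delta ligands, LFNG was highest in D3. It measured 2.32 ± 0.590 TPM in monolayers, 10.8 ± 1.40 in D3, 3.60 ± 0.400 in D11 UT and 7.03 ± 1.11 with IL-13, with changes of 1.86 to D3 (adjusted p = 5.8e-19), -1.38 to D11 UT (adjusted p = 1.9e-14) and 0.74 with IL-13 (adjusted p = 6.6e-07). MFNG fell from monolayer to D3 (-1.15), RFNG rose from D3 to D11 UT (1.13) and from monolayer to D11 UT (0.79, not called with mitochondrial genes removed, at 0.23, or within experiment 2, at 0.18), and POFUT1 fell from monolayer to D11 UT (-1.43).

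Among other receptors and ligands, DLK2, a Delta-like protein that lacks the usual receptor-binding domain, rose to 52.4 ± 9.12 TPM in D3 from 18 ± 5.45 in monolayers (1.51) and stood at 16.1 ± 1.40 in D11 UT (-1.59 against D3) and 21.4 ± 5.55 with IL-13 (0.44, and not called without IL-13 library 3, at 0.34, or after median-of-ratios scaling, at 0.20). DLL3 was lower in D3 (-0.49, not called after median-of-ratios scaling, at -0.20, or quantile normalization, at -0.19) and D11 UT (-1.01) than in monolayers. NOTCH4, DLL4 and DLK1 did not pass the filter and were at 0.9 TPM or below in every library. Of the ubiquitin ligases that act on ligands, NEURL1B was higher in D3 (0.46) and in D11 UT (0.66, not called with mitochondrial genes removed, at 0.16) than in monolayers. Its rise from D3 to D11 UT (0.20, adjusted p = 0.041) was lost without any 1 of 8 single libraries, and MIB1 was lower in D3 (-0.33) and D11 UT (-0.48) than in monolayers, but at 0.15 and 0.048 after median-of-ratios scaling. MIB2 with IL-13 (0.36, adjusted p = 0.038) was lost without any 1 of 7 single libraries.

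Of the genes listed under receptor turnover and trafficking, a role not tested here, DTX3L, a Deltex-family ubiquitin ligase, had the largest changes. It measured 85.5 ± 17.7 TPM in monolayers, 30.9 ± 3.46 in D3 (-1.43), 17.7 ± 3.20 in D11 UT (-0.76 against D3, -2.19 against monolayers) and 47 ± 12.9 with IL-13 (1.35, adjusted p = 1.9e-07). DTX4 rose from monolayer to D3 (0.71) and D11 UT (0.32, but -0.19 with mitochondrial genes removed), and ITCH rose from D3 to D11 UT (0.41, but -0.069 with these removed). The scaffold of the nuclear complex was low: RBPJ itself measured 1.9 to 3.5 TPM in all 32 libraries. CREBBP, a histone acetyltransferase, fell from monolayer to D3 (-1.13), and the acetyltransferases KAT2B and KAT2A moved apart from D3 to D11 UT, at 1.58 and -1.08, and from monolayer to D11 UT, at 1.62 and -1.29. With IL-13 the same genes stood at -0.26 (not called with a pseudocount of 0.1) and 0.51. Of the corepressors, SPEN was lower in D3 (-1.17) and D11 UT (-1.30) than in monolayers, CIR1 rose to D11 UT (0.49 from D3 and 0.35 from monolayer, the latter -0.092 with mitochondrial genes removed), HDAC1 fell from D3 to D11 UT (-0.38) and TLE3 rose with IL-13 (0.34, not called after median-of-ratios scaling, at 0.11).

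In the rest of the HES and HEY family, HES5, a classic Notch target, was listed at 0 in all 10 monolayers and measured 0.6 to 6.1 TPM in D3, 12.1 to 26 in D11 UT and 6.7 to 18.2 with IL-13. It rose from D3 to D11 UT by 2.21 ± 0.20 (adjusted p = 5.3e-11) and fell with IL-13 by 0.74 ± 0.23 (adjusted p = 0.0083). HES4 measured 39.1 to 96.6 TPM in monolayers, 104.8 to 249.2 in D3, 138.3 to 174.6 in D11 UT and 271.4 to 408.8 with IL-13. It rose with IL-13 by 1.14 ± 0.17 (adjusted p = 4.4e-06), with every IL-13 library above every other library of the series, a trait not counted over all genes. HES4 and HES2 were higher, and HES5, HEY1 and NRARP lower, in IL-13 spheroids than in untreated ones. HES6 fell from monolayer to D3 (-0.94, adjusted p = 0.014, and not called within experiment 1, at -0.073, or after median-of-ratios scaling, at -0.43), HES7 was lower in D11 UT than in D3 (-1.23, but 0.054 with library weights) and monolayers (-1.13, not called with library weights, at -0.53, or within experiment 1, at -0.25), and HEY2 and HEYL did not pass the filter, at 0.5 TPM or below in every library.

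For each of the 10 genes, the 3 tested genes with the most similar pattern were taken by Pearson r over the 32 libraries on log2(TPM + 1). These are descriptions, since libraries of a group share their culture and the steps between groups dominate r. NOTCH3 was most like RAPGEFL1 (r = 0.996), CRYBG2 (0.994) and RRAD (0.991). DLL1 was most like PLXNA1 (0.992), GALNT2 (0.989) and CUEDC1 (0.987), JAG1 most like IRAK2 (0.988), NPC1 (0.987) and IL1A (0.986), and NOTCH2 most like MET (0.986), BMPR2 (0.983) and TSPAN5 (0.981). HES2 was most like VSNL1 (0.980), AIF1L (0.979) and SERPINB3 (0.978), HES1 most like ZFP36 (0.975), DUSP1 (0.973) and PNRC1 (0.971), and NRARP most like CA12 (0.974), MGST1 (0.960) and PTGES (0.959). JAG2 was most like LY6E (0.932), ZNF219 (0.932) and TGIF2 (0.925). HEY1, with TTC39B (0.832), ATP11B (0.812) and SLC22A15 (0.802), and NOTCH1, with LAMA5 (0.797), CX3CL1 (0.730) and CRIP2 (0.707), had the weakest likeness. No member was among the nearest 3 genes of another.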

How the data were processed

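The authors deposited 1 table of TPM values, rounded to 1 decimal for the genes described, with 19345 symbols and 32 libraries. Per the submitters' processing notes, the build used was hg38. How reads were aligned and quantified, against which gene models and with which strand setting, is not given in the sources used here. Since TPM hold no read depth, precision came from the spread between libraries. Names tied 26 columns to single samples. The 6 IL-13 columns could only be tied to their group and carried its share of experiment 2 (1 of 6 samples). Library numbers are column numbers.

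On log2(TPM + 1), the 12221 genes that reached 1 TPM in 6 or more libraries were tested, and all 32 libraries entered 1 fit of group and experiment in limma 3.58.1 (R 4.3.3) with an intensity trend and Benjamini-Hochberg adjustment, which was tested on simulated data. The interaction of group and experiment was fitted on the 26 untreated libraries. Same-numbered samples of different groups partly carried different experiment labels, so the numbers were not used as pairs in this fit. Their deviations from group means correlated at -0.444 to 0.356. Experiment was not removed from these deviations, so they cannot show whether samples pair. Named genes were the 10 in every comparison, the largest called rise and fall of each pathway role, and the 3 most similar genes. The genes and lists were chosen with earlier results of these data known. Promoters came from RefSeq (GRCh38.p14) and positions from GENCODE v29. Figures were drawn with matplotlib under Python. Alternatives covered pseudocount, filter, scaling, experiment term, single experiments, libraries fitted, library weights, a replicate block and single libraries left out. Leaving out D3 libraries 4 and 7 was chosen after seeing the data. 1 part of the culture protocol is not reported here.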

Additional observations from a re-analysis of the deposited data

Results flagged for a closer look

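The change between groups differed between experiments 1 and 2 in 15 cases, by the interaction of group and experiment in limma at an adjusted p under 0.05. Of all genes tested, 45.2% were called so from monolayer to D3, 23.8% from D3 to D11 UT and 48.3% from monolayer to D11 UT. Values are the change in experiment 2 minus the change in experiment 1, on the log2 scale. From monolayer to D3 these were HEY1 (-1.987), JAG1 (-1.385), HES1 (-0.9342), NOTCH1 (-0.7547) and NOTCH2 (-0.2938), more negative in experiment 2, and NRARP (1.305) and HES2 (0.5267), more positive. From D3 to D11 UT they were JAG2 (0.528), NOTCH1 (0.4494) and NOTCH2 (0.3116). From monolayer to D11 UT they were HEY1 (-2.042), JAG1 (-1.674), HES1 (-0.8613), NRARP (1.25) and JAG2 (0.4111). Comparisons that share a group share its libraries, so these are not 15 separate observations.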

How the results depend on the processing

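A change of sign was counted only for a value called in the main fit or under the setting compared. Values called in neither count as unchanged whatever their sign. With single libraries left out, 646 of 650 values for the 10 genes stayed on their side of the threshold without such a change, and 4 newly passed it. Under the other settings 457 of 506 values for the 10 did, 12 lost the call, 27 newly passed and 10 changed sign. These tallies leave out the named pathway genes, of which NEURL1B, MIB2 and DLK2 lost a call without single libraries. Where no cause is given below, the cause was not tested.

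Scaling moved the counts most. From monolayer to D3, median-of-ratios scaling gave 6 of the 10 genes higher and the pathway list 19 higher and 18 lower, quantile normalization gave 5, 18 and 21, and experiment 1 alone gave 5 of the 10 higher. All genes under these settings were 4055 higher and 3923 lower of 12041, 3773 and 4353 of 12221, and 1355 and 8310 of 12221. With mitochondrial genes removed, D3 to D11 UT gave 3 of the 10 higher and 5 lower, and the pathway list 3 and 32, against 1718 higher and 8326 lower of all 12839 genes tested. From D3 to D11 UT the list also had 10 higher at a mean of at least 5 TPM, where fewer genes are tested, and 11 in experiment 2 alone. All genes called higher were then 2656 of 7348 and 3355 of 12221. From monolayer to D11 UT the list had 6 higher at 5 TPM, 17 higher and 18 lower after median-of-ratios scaling, 16 higher after quantile normalization and 3 higher with mitochondrial genes removed. All genes called higher were then 1660 of 7348, 4910 of 12041 (4786 lower), 4351 of 12221 and 1533 of 12839. With IL-13, median-of-ratios scaling gave 1 of the 10 higher and 5 lower, quantile normalization 1 higher, and fitting the D11 groups alone 5 lower. The list with IL-13 then had 10 higher and 8 lower, 9 and 8, and 11 higher, with 11 higher without mitochondrial genes and 1 lower at 5 TPM. All genes with IL-13 were 2327 higher and 2517 lower of 12041, 2320 and 2502 of 12221, and 3684 and 1103 of 12221. Without mitochondrial genes 3680 of 12839 were higher, and at 5 TPM 613 of 7348 were lower. Among all called genes, median-of-ratios scaling moved the share called higher from 15.7 to 50.8% at D3, from 24.8 to 50.6% from monolayer to D11 UT and from 82.2 to 48.0% with IL-13, and mitochondrial removal moved it from 48.4 to 17.1% from D3 to D11 UT and to 13.2% from monolayer to D11 UT.

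For values called in the main fit or under the setting compared, signs changed as follows, pathway genes included. From monolayer to D3, NOTCH1 was at -0.27 in experiment 2 alone, HES1 at 0.49 after median-of-ratios scaling and 0.44 in experiment 1 alone, HEY1 at 0.18 in experiment 1 alone, and MIB1 at 0.1489 (median-of-ratios) and 0.1514 (quantile). From D3 to D11 UT with mitochondrial genes removed, NOTCH2 was at -0.25, HES2 -0.12, NRARP -0.54, PSENEN -0.099, NEURL1B -0.35 and ITCH -0.069, and with library weights NRARP was at -0.69 and HES7 at 0.054. From monolayer to D11 UT, NOTCH1 was at 0.43 and MIB1 at 0.048 after median-of-ratios scaling, MIB1 at 0.016 after quantile normalization, HEY1 at -0.58 in experiment 2 alone, and DTX4 at -0.19 and CIR1 at -0.092 with mitochondrial genes removed.

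With single libraries left out, genes of the 10 called higher and lower were 3 and 4 from monolayer to D3, 6 and 2 to 3 from D3 to D11 UT, 4 to 5 and 4 from monolayer to D11 UT, and 2 and 3 to 4 with IL-13. Without D3 libraries 4 and 7, 6 of the 10 differed between experiments in their change from D3 to D11 UT. Sample numbers were not used as pairs in the main fit, since same-numbered samples partly differed in experiment. A replicate block left the counts of the 10 at 3 and 4, 6 and 2, and 4 and 4 in the untreated comparisons, with NEURL1B from D3 to D11 UT lost (0.14). No paired analysis was possible with IL-13 because those columns carry no sample number of the labels. TPM keep no depth, so low genes such as HEY1 and NOTCH2 carry a counting error that cannot be given.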
